A study of Mus musculus with 6 samples.

Results

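Gm3286, E330014E10Rik and Gm16513 are 3 protein-coding genes that lie close together on mouse chromosome 5, and they were followed here in brain RNA of wild-type and APP/PS1 mice. They were chosen as all non-control probes whose identifier is a RefSeq transcript of one of them, which gave 4 probes among 59709. Gm3286 has a probe for NM_001122678 and another for NM_001167793, E330014E10Rik has one for NM_001122668, and Gm16513 has one for NM_001200055. They make up 3 of the 112 genes on the array that could be given a symbol. The genes were selected on their lower signal in APP/PS1 than in WT brain, measured in these same samples, so their differences between genotypes are described and carry no test.

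The study compared whole-brain RNA of 3 WT mice with that of 3 APP/PS1 mice, all male, aged 9 months and labelled C57BL/6. APP/PS1 mice carry transgenes for the amyloid precursor protein and presenilin 1 and form amyloid plaques; the labels give neither the promoters nor the alleles, and do not say whether the WT mice were littermates. Ribosomal RNA was removed and the remainder was copied by random priming into Cy3-labelled cRNA, which was hybridised in 1 colour to an array made mainly for long non-coding transcripts. Scanner signals were used for WT replicates 1 and 2 and for the 3 APP/PS1 replicates, and the authors' value table was used for all 6. In bulk tissue, fewer cells of a type and less RNA per cell cannot be told apart.

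In the RefSeq gene order (GRCm38.p6), Gm16513 and Gm3286 sit inside a cluster of Pramel genes, and E330014E10Rik directly follows its last Pramel-named gene. Pramel genes are the mouse relatives of PRAME, a human antigen first found in melanoma. They form large families of tandem copies, encode proteins with leucine-rich repeats, and are known mainly from germ cells and early embryos. The symbols Gm3286, Gm16513 and E330014E10Rik are placeholders of the mouse annotation, and no role is stated for them here.

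From Gm16513 to E330014E10Rik the gene order counts 14 genes. Gm16513 comes first, Gm3286 lies 7 positions after it and E330014E10Rik 13 positions after it. Of the 14, 5 carry a Pramel name, 2 are pseudogenes and 4 are other protein-coding genes with Gm symbols. Pramel48 lies directly before Gm3286, Pramel45 directly before Gm16513 and Pramel50 directly before E330014E10Rik, so each of the 3 genes follows a Pramel gene in this order. No other gene of the 14 has a probe that could be named.

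**Figure D1:**
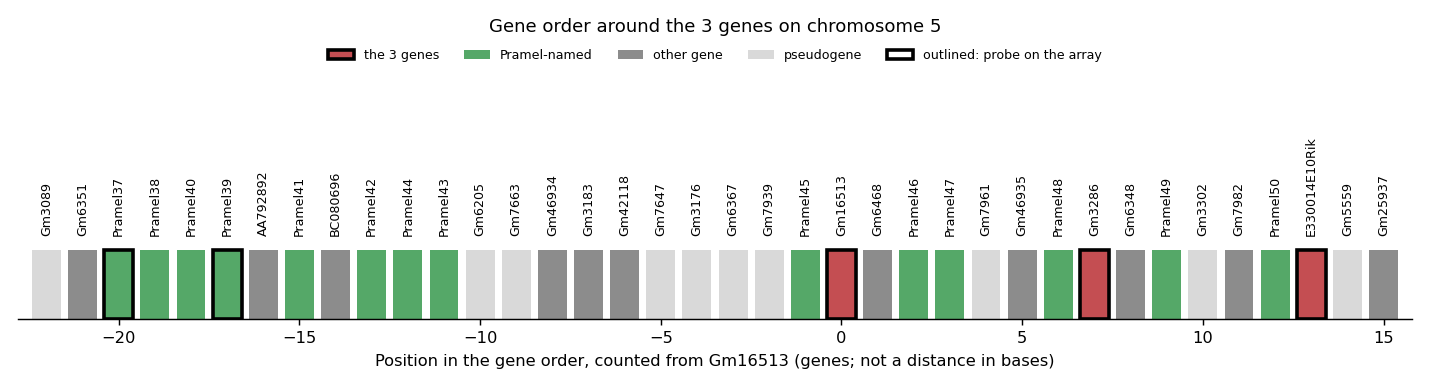
Gene order around the 3 genes on chromosome 5. The horizontal axis counts genes from Gm16513 and is not a distance in bases. Red boxes are the 3 genes, green boxes have a Pramel name, dark grey boxes are other genes and light grey boxes are pseudogenes. A black outline marks a gene with a probe on the array, which besides the 3 genes holds for Pramel37 and Pramel39.

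The sequence before the start of E330014E10Rik, the only one of the 3 genes found in the RefSeq promoter table, shares stretches with Pramel genes. It is shown because it names the genes whose upstream sequence is in part identical to that of a member. The 250 bases before the start lie at chr5:95775620-95775869 on the plus strand (GRCm38.p6), and capitals mark the bases that lie in an exact run of at least 20 bases shared with the window of another gene in that table.
E330014E10Rik: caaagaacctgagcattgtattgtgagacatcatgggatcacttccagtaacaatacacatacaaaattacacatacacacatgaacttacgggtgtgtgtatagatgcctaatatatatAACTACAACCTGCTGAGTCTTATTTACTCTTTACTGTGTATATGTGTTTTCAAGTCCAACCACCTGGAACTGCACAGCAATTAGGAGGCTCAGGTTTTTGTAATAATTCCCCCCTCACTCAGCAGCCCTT

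The capitals cover 130 of the 250 bases. Of 32850 windows of other genes, 300 bases each, only 4 (0.0122%) shared such a run, and all 4 belong to Pramel genes of chromosome 5. The window of Pramel48 shared 129 of the 250 bases, with a longest exact run of 108 bases. The window of Pramel38 shared a single run of 111 bases, and those of Pramel35 and Pramel33 each shared a run of 73 bases. In each of these windows the longest run begins at the end farthest from the start, at position -250, so its extent in that direction was not measured. Measured in E330014E10Rik, the run shared with Pramel48 lies from -130 to -23 and the others reach -1, the end of the sequence compared. The sequences of the array's probes are not among the data used here. The shared runs lie before the start and say nothing of what a probe binds. Whether a probe for 1 of the 3 genes also binds transcripts of the others or of a Pramel gene was not tested, so the values below are those of probes.

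On every array the 4 probes gave a clear signal. All 4 spots were well above background on all 5 scanned arrays, and none was saturated. The median brightness of the spots lay between 240 and 489, over a local background of 27 to 49. The spots sit far apart, in rows 46, 98, 269 and 329 of the array. Signals of different probes depend on how well each binds, so they were compared between arrays and not between genes.

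Gm3286 gave the lowest values in APP/PS1 brain relative to WT. Its probe for NM_001122678 had processed signals (brightness after background subtraction, before any scaling between arrays) of 342 and 354 on the WT arrays. The same probe had 176, 193 and 215 on APP/PS1 arrays 1, 2 and 3. Every APP/PS1 array was thus below both WT arrays, and the highest APP/PS1 value was well apart from the lower WT value. The median brightness of this spot, before any subtraction, was 386 and 400 in WT and 240, 253.5 and 266 in APP/PS1. Its local background was 27 and 29 on the WT arrays and 28, 30 and 27 on the APP/PS1 arrays. The local background need not be the amount that the scanner software subtracted, and the part of that subtraction in the difference was not tested.

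After each array was set to its own 75th percentile, the NM_001122678 probe had log2 levels of -0.15 ± 0.03 (SD, n = 2) in WT and -1.34 ± 0.11 (SD, n = 3) in APP/PS1. The difference was -1.18 ± 0.09 (SE of the limma fit), which puts the APP/PS1 level at 44.1% of WT, or 2.27-fold lower. A log2 level here is relative to the array's 75th percentile, so a value below 0 means a spot dimmer than that percentile. In the value table, where the authors' log2 values also cover WT replicate 3, this probe read 8.62, 8.65 and 8.64 in WT and 7.41, 7.38 and 7.58 in APP/PS1.

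The second Gm3286 probe, for NM_001167793, sits at another place on the array and gave nearly the same difference. Its processed signals were 356 and 335 in WT and 182, 191 and 199 in APP/PS1, with no overlap between the genotypes. The scaled log2 level was -0.16 ± 0.06 (SD, n = 2) in WT and -1.36 ± 0.04 (SD, n = 3) in APP/PS1, a difference of -1.20 ± 0.08 (SE). On each array the 2 Gm3286 probes kept nearly the same offset from each other, from -0.06 to 0.11 on the log2 scale. The difference between genotypes was therefore the same for both to within 0.02, less than the SE of either. The table values of this probe were 8.67, 8.58 and 8.55 in WT and 7.46, 7.37 and 7.46 in APP/PS1.

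E330014E10Rik, the last of the 3 in the gene order, had 50.1% of its WT level in APP/PS1 brain. Its processed signals were 406 and 390 in WT and 236, 260 and 262 in APP/PS1. The APP/PS1 arrays again lay below both WT arrays. Scaled log2 levels were 0.04 ± 0.04 (SD, n = 2) and -0.96 ± 0.03 (SD, n = 3), a difference of -1.0 ± 0.07 (SE). The 3 APP/PS1 arrays lay within 0.05 of each other on this scale, the narrowest range of the 4 probes in that genotype. The local background of this spot on WT array 2 was 49, against 30 to 34 on the other arrays, and was marked as an outlier by the scanner software. Without that spot the difference was -1.03. The value table gave 8.86, 8.80 and 8.78 in WT and 7.82, 7.83 and 7.86 in APP/PS1.

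Gm16513, the first of the 3 in the gene order, had the smallest difference and the widest spread. Processed signals were 342 and 357 in WT and 260, 308 and 253 in APP/PS1. APP/PS1 replicate 2 was the highest of its group, and yet below both WT arrays. Scaled log2 levels were -0.15 ± 0.04 (SD, n = 2) and -0.84 ± 0.13 (SD, n = 3), a difference of -0.70 ± 0.10 (SE), so that the APP/PS1 level was 61.7% of WT. In the value table the WT samples read 8.61, 8.67 and 8.56, and the APP/PS1 samples 7.96, 8.07 and 7.80.

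**Figure D2:**
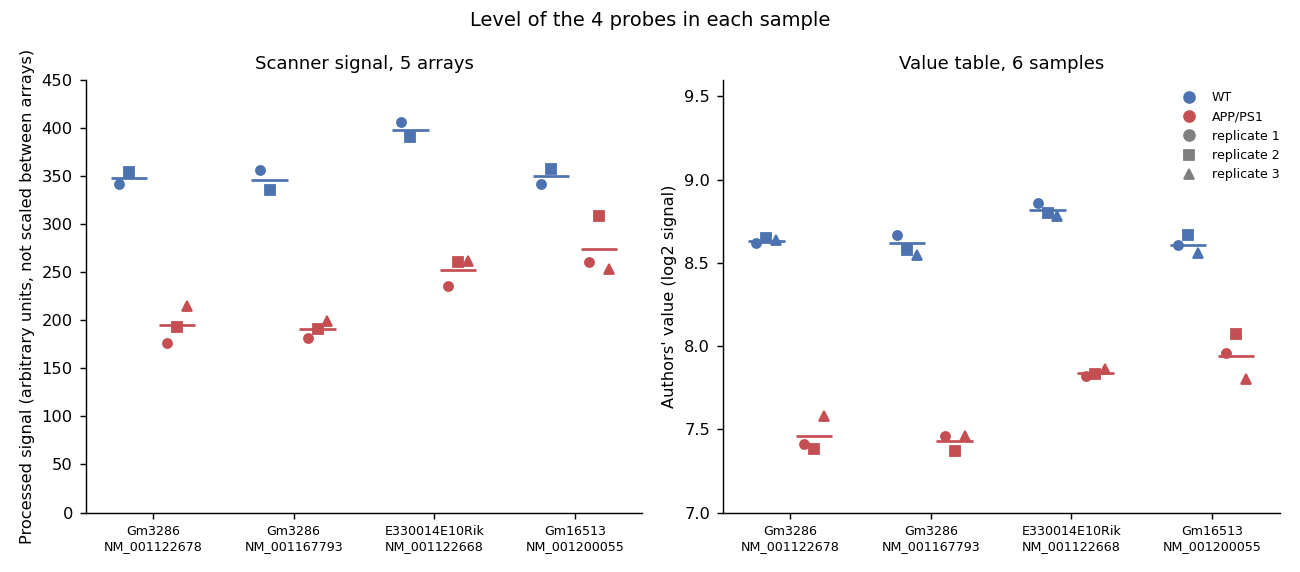
Level of the 4 probes in each sample. The left panel shows the processed signal in arbitrary units on 5 arrays, without scaling between arrays and with an axis from 0, and the right panel shows the authors' log2 values for 6 samples. Blue symbols are WT, red symbols are APP/PS1, the symbol's shape gives the replicate and horizontal lines are group means, with WT replicates 2 and 3 counted as 1 sample on the right. For each probe every red symbol lies below every blue one, with the narrowest gap at Gm16513.

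For all 4 probes, both WT arrays thus lay above each of the APP/PS1 arrays. The same held for 29.0% of the 45630 probes tested in the scanner signals, and in the value table for 30.6% of 48436 rows. Since the genes were proposed from this contrast, nothing is read from the count of 4 against that share. The gap between the lowest WT and the highest APP/PS1 array was 1.04 and 1.11 (log2) for the Gm3286 probes, 0.94 for E330014E10Rik and 0.54 for Gm16513. In the value table the gaps over all 6 samples were 1.04, 1.09, 0.92 and 0.49.

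The SD pooled over both genotypes ran from 0.033 to 0.11 over the 4 probes. Its median over 6744 probes within 0.5 (log2) of the members' level was 0.099. Each probe rests on a single spot per array, for which the scanner software gave an error of 10% to 10.3% of the signal. A direct view of spot noise comes from Gk, a glycerol kinase gene printed as 20 spots with a mean scaled level of -0.12, near the WT levels of the members and above their APP/PS1 levels. Its spots scattered within an array by an SD of 0.11 to 0.19, and its difference between genotypes was -0.09.

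Among the 6744 probes of similar brightness, 5.68% had a difference at or below that of Gm16513 and 1.05% one at or below that of the lower Gm3286 probe. Over all 45630 probes tested these shares were 5.35% and 1.13%. The median difference of the probes of similar brightness was -0.04.

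**Figure D3:**
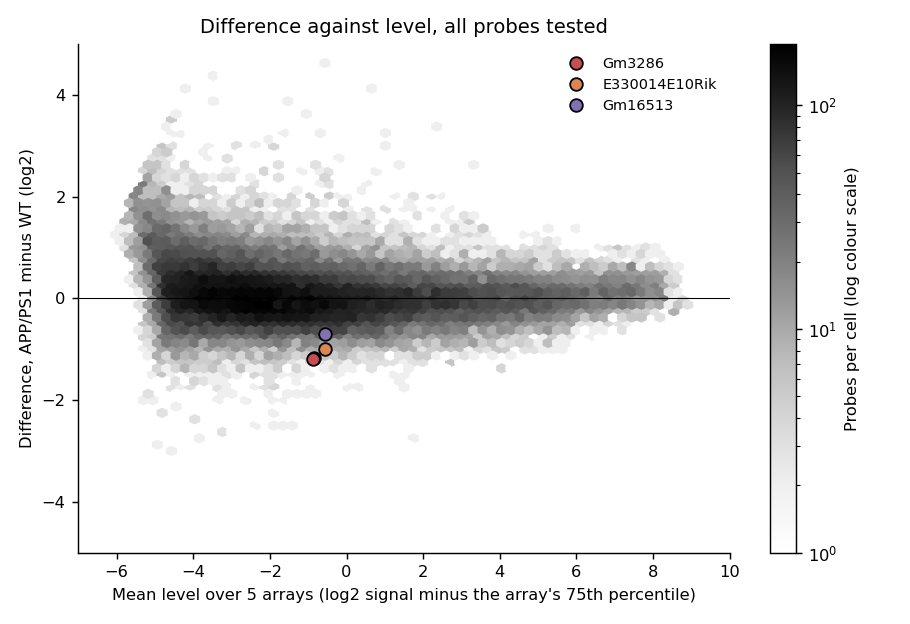
Difference between genotypes against level for the probes tested in the scanner signals. The horizontal axis is the mean log2 level over 5 arrays, relative to each array's 75th percentile, and the vertical axis is the log2 difference, APP/PS1 minus WT; grey cells hold all probes, darker for more probes on a log colour scale, and 54 of 45630 probes lie beyond the vertical range of 5. The coloured points of the 3 genes, at differences from -0.70 to -1.20, lie in the lower part of the grey cloud, with 1.05% of the probes of similar brightness at or below the lower Gm3286 probe.

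The probes of the 3 genes did not give the same difference between genotypes. Whether the transcripts themselves differ in this way, or only the binding and background of their probes, was not tested. Offsets between probes within an array do not depend on the factor that scales that array, though they do depend on the background correction. The log2 level of Gm16513 relative to the mean of the Gm3286 probes was -0.03 and 0.05 on the WT arrays. It was 0.54, 0.68 and 0.29 on the APP/PS1 arrays, with the groups apart and a shift of 0.49. Under the normexp background correction this shift was 0.29. E330014E10Rik stood 0.22 and 0.18 above Gm3286 on the WT arrays and 0.40, 0.44 and 0.34 above it on the APP/PS1 arrays, a shift of 0.19. Gm16513 relative to E330014E10Rik was -0.25 and -0.13 in WT and 0.14, 0.24 and -0.05 in APP/PS1, a shift of 0.30. By these offsets the Gm3286 probes had the largest difference, the E330014E10Rik probe the next and the Gm16513 probe the smallest. Under normexp, E330014E10Rik was closer to Gm3286, at -0.83 against -0.92 and -0.91. The nearest WT and APP/PS1 arrays lay 0.24 apart in the offset of Gm16513 to Gm3286. They lay 0.12 apart for E330014E10Rik to Gm3286 and 0.08 for Gm16513 to E330014E10Rik. The spot SD of Gk, 0.11 to 0.19, is that of a single spot. Each gap joins several spots on different arrays, so its noise is larger than that SD. The gap of 0.12 lies within the range of that SD and the gap of 0.08 below it. Whether the gap of 0.24 exceeds the noise of such offsets was not tested. The place of E330014E10Rik between the other genes is therefore not settled by these arrays.

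The size of the differences depends on how arrays are set to a common scale. The 75th percentile of log2 signal was 0.34 higher on the APP/PS1 arrays than on the WT arrays. Without any scaling the differences were -0.84 and -0.86 for the Gm3286 probes, -0.66 for E330014E10Rik and -0.36 for Gm16513. Scaling to the median gave -1.27, -1.29, -1.09 and -0.79. A normexp background correction gave -0.92, -0.91, -0.83 and -0.62. The direction was lower in APP/PS1 for each probe under all 14 other settings, and the order of the genes was the same in each. Part of this was fixed beforehand. With every APP/PS1 array below both WT arrays, leaving out a sample could not reverse a direction. A change of 1 factor per array, as in median scaling or no scaling, cannot alter the order. The genes were also chosen as lower in these samples.

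**Figure D4:**
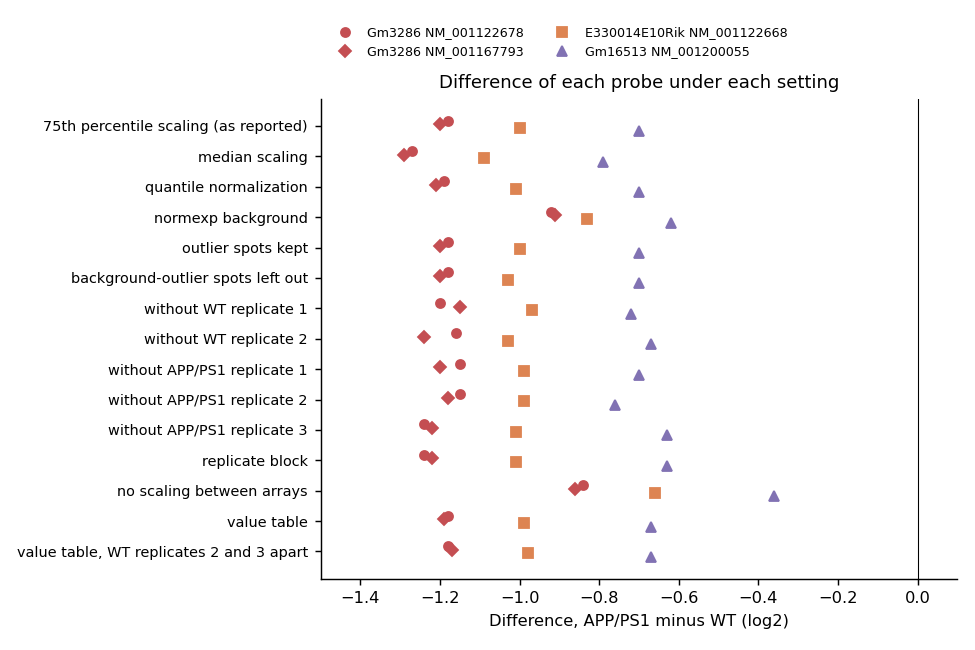
Difference of each probe under the reported setting and the 14 others. The horizontal axis is the log2 difference, APP/PS1 minus WT, and each line of points is a setting; red symbols are the 2 Gm3286 probes, orange squares E330014E10Rik and violet triangles Gm16513. All points lie left of 0, and Gm16513 without scaling, at -0.36, comes closest to it.

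The other genes of the cluster that could be looked up gave no signal above background. Within 50 positions of the 3 genes the gene order holds 114 genes, of which 18 have a Pramel name, and besides the 3 genes only Pramel37 and Pramel39 have a probe. Pramel37, 20 positions before Gm16513, had processed signals of 3.68 and 3.81 in WT and 4.41, 4.35 and 3.13 in APP/PS1. Pramel39, 17 positions before it, had 4.18 and 3.81 in WT and 4.53, 3.54 and 4.04 in APP/PS1. Neither was well above background on any array, where the lowest signal so marked was 15.7 to 20.5, so no difference is given for them. Neither is in the value table.

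Among the other named genes, the profiles closest to the members over the 5 arrays were those of Tcstv1, Spry3 and Nono. Likeness was taken as the root mean square difference of log2 levels after each gene was centred on its own mean, which with 5 arrays of 2 genotypes mostly ranks genes by the size of their difference. For E330014E10Rik the closest was Tcstv1, a gene known from the early embryo, at 0.086. Tcstv1 had scaled log2 levels of -1.39 and -1.57 in WT and -2.42, -2.29 and -2.31 in APP/PS1. Tcstv3, listed with it as a marker of the early embryo, had -4.0 and -3.77 in WT and -3.66, -3.67 and -4.17 in APP/PS1, with overlapping groups and a difference of 0.06. The germ cell marker Ssty2, well above background on 2 of the 5 arrays, had -6.71 and -6.67 in WT and -4.65, -4.06 and -4.46 in APP/PS1. For Gm3286 the closest was again Tcstv1, at 0.18. This is further than E330014E10Rik itself, at 0.10, while Gm16513 was at 0.27 from Gm3286. For E330014E10Rik, in contrast, Tcstv1 was closer than either other member, with Gm3286 at 0.10 and Gm16513 at 0.18.

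For Gm16513 the closest was Spry3, of the Sprouty family of inhibitors of receptor tyrosine kinase signalling, at 0.084. Spry3 read 0.32 and 0.28 in WT and -0.34, -0.44 and -0.50 in APP/PS1. Nono, which encodes a nuclear RNA-binding protein of paraspeckles, came next for Gm16513 at 0.097, with levels of 5.36 and 5.37 in WT and 4.78, 4.75 and 4.76 in APP/PS1. The vomeronasal receptor genes Vmn1r135 and Vmn1r241 followed at 0.13 and 0.15, with Tcstv1 between them at 0.14. All of these were closer to Gm16513 than the other members were, with E330014E10Rik at 0.18 and Gm3286 at 0.27. For Gm3286 and E330014E10Rik the next in order after Tcstv1 were Spry3, Nono, Vmn1r241 and Gm21953, at 0.24, 0.29, 0.32 and 0.33 for Gm3286 and at 0.15, 0.20, 0.23 and 0.24 for E330014E10Rik. Of the 84 named genes tested, 24 were lower on every APP/PS1 array, and 6 of the 84 had a difference at or below that of Gm16513, the 3 members among them. The other 3 were Vmn1r157, Tcstv1 and Spry3, at -0.90, -0.86 and -0.73, of which Vmn1r157 was chosen after its value was seen. Over all 45630 probes tested, 29.0% were lower on every APP/PS1 array and 5.35% had a difference at or below that of Gm16513. The members were selected as lower, so nothing is read from the counts among named genes. Despite the size of its difference, Vmn1r157 was not among the 5 closest profiles of any member.

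**Figure D5:**
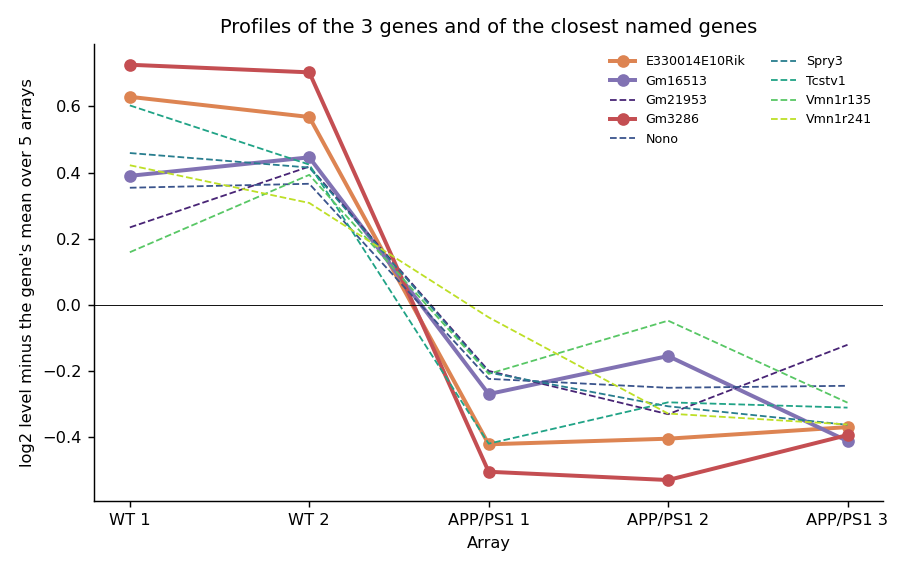
Profiles of the 3 genes and of the named genes closest to them. The horizontal axis lists the 5 arrays and the vertical axis is the log2 level minus the gene's mean over these arrays; thick lines with points are the 3 genes, with the Gm3286 probes averaged, dashed lines are the other genes, and the lines only join the values of a gene. All profiles are above 0 on both WT arrays and below 0 on the APP/PS1 arrays, with Gm3286 farthest from 0 on all but APP/PS1 array 3.

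Several facts of the whole series bear on these values. In the file headers the 2 scanned WT arrays share 1 scan identifier and the 3 APP/PS1 arrays share another. Whether a scan identifier stands for a slide was not looked up. With no identifier holding both genotypes, effects of the scan and of genotype cannot be told apart. Median processed signals were 73.0 to 83.3 in APP/PS1 and 58.6 and 59.4 in WT. The share of probes marked as well above background was 70.2% to 78.5% in APP/PS1, and 68.0% and 69.1% in WT. Their part in the member differences was not tested. Over all probes, limma called 14843 of 45630 at a Benjamini-Hochberg adjusted p of 0.05, of which 8242 rose and 6601 (14.5%) fell. This balance depended on the scaling, with 5958 rises and 8000 falls under median scaling and 7045 and 7891 under quantile normalization. Of the 48436 rows of the authors' values, 14593 were called, of which 6880 rose and 7713 (15.9%) fell. WT replicates 2 and 3 were nearly identical, with a scatter of 0.0282 (log2) over bright probes against 0.0672 to 0.0813 for other pairs and 0.0621 between repeated spots of 1 probe. Their difference was smaller than the noise between spots, and they were counted as 1 sample in the value table. The labels call the replicates biological. The labelled tissue could not be checked, since of 46 marker genes listed for brain cell types, germ cells and early embryo only B2m, Ssty2, Tcstv1 and Tcstv3 have a named probe, and none of these marks neurons, astrocytes or oligodendrocytes.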

How the data were processed

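Scanner files give the intensity of each spot, per the file headers, on an array designed for mm9. The submitters' processing notes name Agilent Feature Extraction 11.0.1.1. The authors' deposited value table is in log2; each column has a median of 7.06 and correlated with its array's log2 signal at 0.99965 or more. How it was normalized is not stated in the labels. Log2 processed signals were set to each array's 75th percentile, spots flagged as feature outliers were left out, spots of 1 probe were averaged, and probes well above background on at least 2 arrays were fitted with limma 3.58.1 in R 4.3.3 (two-sided, Benjamini-Hochberg); the fit was tested on simulated data. Table rows were tied by spot number. RefSeq identifiers were named through a GRCm38.p6 table (116 probes, 112 genes), used only for names, order and the promoter. Members and lists were chosen with earlier results of these data known. Named genes were the members, neighbours within 50 positions with a probe, and the 5 closest profiles for each member. A planned list of relatives by protein identity was not run, because no protein sequences were used here. Alternatives covered scaling, background, filters, variance model, threshold, pairing and each sample left out. Same-numbered samples did not deviate together (correlations 0.0526, -0.0948 and 0.0127). The small number of arrays limits precision.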

Additional observations from a re-analysis of the deposited data

How the results depend on the processing

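No setting tried reversed the direction of any of the 4 probes. The genes were chosen as lower and their groups did not overlap, so leaving out a sample could not have done so. Against the spread between replicates, 46 of 56 values stayed within 1 SD and 10 moved: with median scaling the Gm3286 probes had -1.27 and -1.29 and E330014E10Rik -1.09; with normexp -0.92, -0.91 and -0.83; and without scaling between arrays, added after seeing the data, -0.84, -0.86 and -0.66, with Gm16513 at -0.36. Normexp, which adds an offset of 50 to the signal, used the median spot signal because the mean is not among the columns used here. Leaving out 1 sample gave -1.24 to -1.15 for both Gm3286 probes, -1.03 to -0.97 for E330014E10Rik and -0.76 to -0.63 for Gm16513. The shift of Gm16513 relative to Gm3286 was 0.29 with normexp and 0.41 to 0.60 with 1 sample left out.

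With the replicate number as a block (WT and APP/PS1 replicates 1 and 2), the differences were -1.24, -1.22, -1.01 and -0.63. The count of 14843 probes called in the scanner signals became 1252 under the replicate block, where 1 degree of freedom remains, 7846 with normexp, 3569 for changes of 2-fold at an unadjusted p, and 8762 to 10637 with 1 sample left out; it was 8762 and 8974 without WT replicates 1 and 2 and 8963 and 9150 without APP/PS1 replicates 2 and 3. For the authors' values 14593 became 3226 for changes of 2-fold at an unadjusted p, and 5725 to 14380 with 1 sample left out, with 5725 without WT replicate 1 and 9139, 7420 and 7663 without APP/PS1 replicates 1, 2 and 3. A single WT sample left in a fit was taken to vary as APP/PS1 samples do; the cause of the other changes was not tested. The alternatives for Pramel37 and Pramel39 were not run, as neither was above background.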
